A study of Homo sapiens with 4 samples.

Results

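The genes described here are the 3 of the CXCL12 axis, taken by symbol from the 28285 gene rows of the deposited tables: the chemokine CXCL12, its signalling receptor CXCR4, and its scavenging receptor ACKR3, which the tables list under the older symbol CXCR7. All 3 were found, each in 1 row. RNA sequencing had been done on 2 fractions sorted from cultures of the widely used human embryonic stem cell line H1, in which the gene for enhanced green fluorescent protein was knocked in at GATA2. Both fractions were CD34+ CD31+ CD43-, all titles also name Cre without giving its role, and each fraction had 2 libraries. The GFP-positive cells carried eGFP and are labelled hemogenic endothelium. The GFP-negative cells lacked it and are labelled endothelial cells, although their titles and source names, too, say hemogenic endothelium.

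CXCL12, also called stromal cell-derived factor, is a secreted chemokine made by stromal and endothelial cells that attracts CXCR4-bearing cells. CXCR4 is a G protein-coupled receptor that signals through inhibitory G proteins; it retains blood stem cells in bone marrow and also acts in arterial development. ACKR3 binds CXCL12 without classical G protein signalling, recruits arrestin and carries the chemokine into the cell, which shapes the gradients that CXCR4 reads. In cultures from human pluripotent stem cells, surface CXCR4 together with CD73 has been used to mark arterial-type endothelium.

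CXCL12 (ENSG00000107562) lies on chromosome 10, 44370165 to 44386493, minus strand, in GENCODE v29 on GRCh38. CXCR4 (ENSG00000121966) lies on chromosome 2, 136114349 to 136118165, minus strand, and ACKR3 (ENSG00000144476) on chromosome 2, 236567787 to 236582358, plus strand. In that annotation each is protein-coding and 0 other genes overlap it, so no annotated antisense neighbour shares its reads. RefSeq promoter sequences were matched for 2 of the 3 members, CXCL12 and CXCR4. They are shown because the fractions were separated by a reporter in GATA2, a factor that binds DNA at GATA motifs. The 250 bases before the RefSeq start are given 5′ to 3′ on the gene's strand, at chr10:44385098-44385347 for CXCL12 and chr2:136118150-136118399 for CXCR4 (GRCh38.p14, minus strand), with matches to any searched motif in capitals. The CXCL12 window lies inside the GENCODE span of the gene, since that annotation holds a start further upstream.
CXCL12: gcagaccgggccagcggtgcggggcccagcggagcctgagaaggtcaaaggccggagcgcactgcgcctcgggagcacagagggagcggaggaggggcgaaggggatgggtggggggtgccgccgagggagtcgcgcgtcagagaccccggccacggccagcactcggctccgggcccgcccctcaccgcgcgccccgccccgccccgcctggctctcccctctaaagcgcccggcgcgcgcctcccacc
CXCR4: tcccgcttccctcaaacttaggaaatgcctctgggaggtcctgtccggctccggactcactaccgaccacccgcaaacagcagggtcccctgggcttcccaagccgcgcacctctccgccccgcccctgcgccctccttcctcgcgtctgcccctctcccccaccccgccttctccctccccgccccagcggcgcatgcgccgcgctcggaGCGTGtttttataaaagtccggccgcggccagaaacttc
The motifs searched on both strands were GATAA of GATA factors, TGTGGT of RUNX factors, ACGTG and GCGTG of hypoxia-inducible factors, and CGGAA of ETS factors. The 1 match in the pair was GCGTG, which begins 39 bases before the start of CXCR4. Among 27305 promoters of the same length, 31.9% held GCGTG, 18.7% ACGTG, 21.0% GATAA, 10.9% TGTGGT and 30.7% CGGAA. Both windows were rich in G and C, at 78.0% for CXCL12 and 68.0% for CXCR4, against a median of 58.0% over these promoters. They held 31 and 24 CpG dinucleotides, against a median of 11.

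The axis was weakly expressed in both fractions, and none of its 3 genes passed the test between them. CXCL12 was listed at 0 in both libraries of GFP-positive cells and just above 1 TPM in both GFP-negative libraries. CXCR4 was near 9 TPM in both fractions, with overlapping libraries. ACKR3 averaged 3.76 TPM in GFP-positive cells against 6.63 TPM in GFP-negative cells, without overlap, as in this direction for 21.5% of all genes tested. TPM, the usual abundance unit of RNA sequencing, corrects each gene for transcript length and each library for its total. Differences were tested with limma on log2(TPM + 1) over the 15425 genes that reached 1 TPM in at least 2 libraries, with a Benjamini-Hochberg adjusted p of 0.05 as the threshold. Of these genes 69 passed, which is 0.447%, with 19 (0.123%) higher and 50 (0.324%) lower in GFP-positive cells; this balance was not stable, with 17 higher and 1 lower without GFP-negative replicate 1 and 36 higher and 29 lower without GFP-negative replicate 2. Of the axis, 0 of 3 passed. Over all genes tested, 2171 (14.1%) had an unadjusted p under 0.05, and 7983 log2 fold changes lay above 0 and 7442 below. Of the axis none had such a p in this fit, while CXCL12 had one without a filter on low values (limma adjusted p = 0.332) and without a variance trend (limma adjusted p = 0.183). Its GFP-positive values, both 0, had no spread, which limits what such a p can show.

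**Figure D1:**
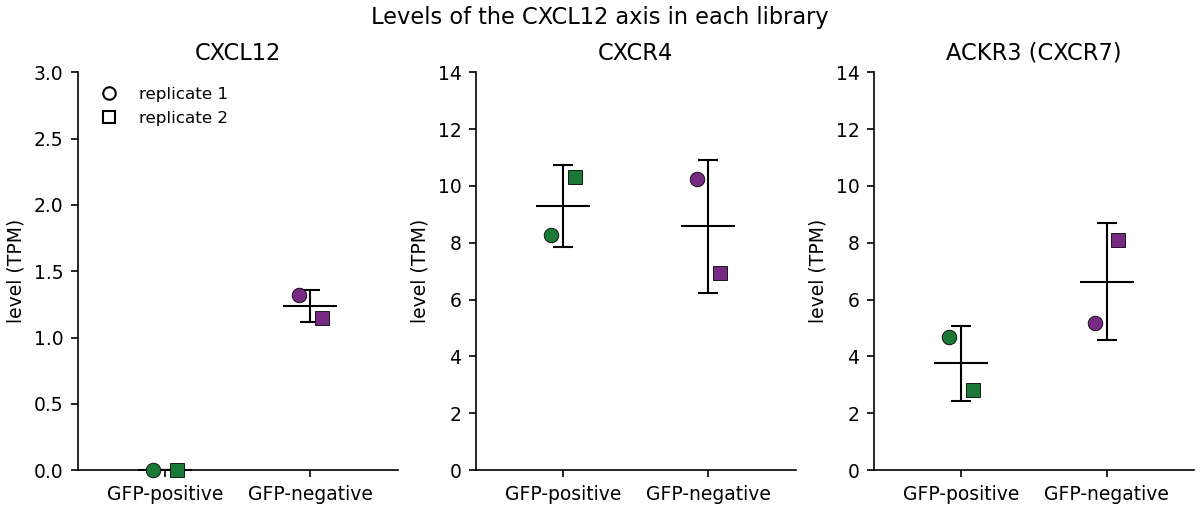
Level in TPM (y axis) of CXCL12, CXCR4 and ACKR3 in GFP-positive and GFP-negative cells; points are libraries, circles replicate 1 and squares replicate 2, and bars are mean ± SD (n = 2). CXCL12 is at 0 in both GFP-positive libraries, the CXCR4 libraries of the fractions interleave, and both GFP-positive libraries lie below both GFP-negative libraries for ACKR3; the y axis of CXCL12 has its own scale.

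The ligand gene CXCL12 had 0 TPM in GFP-positive replicates 1 and 2, against 1.32 and 1.15 TPM in GFP-negative replicates 1 and 2. The libraries did not overlap, which was so, in either direction, for 44.3% of all genes tested. The difference did not pass (limma adjusted p = 0.413), and no fold is given because one fraction is listed at 0. CXCL12 entered the test only through the GFP-negative libraries, so a difference in that direction was built in. A listed 0 with a low value opposite it was not rare at this level. Of 132 genes between 1 and 1.5 TPM in both GFP-negative libraries, 17 (12.9%) were listed at 0 in both GFP-positive libraries. In the mirrored case, with 88 genes between 1 and 1.5 TPM in both GFP-positive libraries, 2 (2.27%) were listed at 0 in both GFP-negative libraries. Over all genes tested, 144 (0.934%) were at 0 in both GFP-positive libraries and 77 (0.499%) in both GFP-negative libraries.

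Depth bears on these low values. TPM keeps no read totals, but in genes with a single annotated transcript low values multiplied by transcript length clustered at even steps. If a step is 1 read, relative depth was 0.897 and 0.592 in the GFP-positive libraries, against 1.0 and 0.795 in the GFP-negative libraries, in replicate order. On that reading CXCL12 rested on 0.931 to 8.14 reads in GFP-negative replicate 1 and on 0.644 to 5.63 reads in GFP-negative replicate 2, from its shortest coding transcript of 404 nt to its longest of 3532 nt. A single read would have been worth 0.181 to 1.58 TPM in GFP-positive replicate 1 and 0.274 to 2.40 TPM in GFP-positive replicate 2. In GFP-negative replicates 1 and 2, 1 read on the shortest transcript would be worth 1.42 and 1.79 TPM, above the listed values. The low ends are thus under 1 whole read, and the shortest transcript alone does not account for the values on this reading. Which of the longer transcripts the reads came from is not known from these tables. The part of depth in the CXCL12 difference was not tested.

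The receptor gene CXCR4 had 8.28 and 10.31 TPM in GFP-positive replicates 1 and 2, against 10.23 and 6.92 TPM in GFP-negative replicates 1 and 2. Each fraction held 1 library near 10 TPM and 1 lower, and the fractions overlapped. Means were 9.30 ± 1.44 TPM in GFP-positive cells, against 8.58 ± 2.34 TPM in GFP-negative cells (n = 2 each, SD), so the difference was smaller than the spread within a fraction. The log2 fold change was 0.12 ± 0.40 (SE; limma adjusted p = 0.936), with a 95% interval from -0.85 to 1.09. The sign turned when a library was left out, to -0.02 when this was GFP-positive replicate 2 and to -0.13 when it was GFP-negative replicate 2. Taking a step as 1 read, the values stand for 21.8 and 17.9 reads in the GFP-positive libraries and 30.1 and 16.1 reads in the GFP-negative libraries on the shorter coding transcript, of 1682 nt. On the longer, of 1895 nt, they stand for 24.6 and 20.2 reads in the GFP-positive libraries and 33.9 and 18.2 reads in the GFP-negative libraries. By mean level CXCR4 was 10269th of the 15425 genes tested.

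The scavenger gene ACKR3 had 4.70 and 2.82 TPM in GFP-positive replicates 1 and 2, against 5.17 and 8.09 TPM in GFP-negative replicates 1 and 2. Both GFP-positive libraries lay below both GFP-negative libraries, a separation in this direction that 21.5% of all genes tested showed. The nearest pair, GFP-positive replicate 1 and GFP-negative replicate 1, differed by less than the libraries within either fraction. Means were 3.76 ± 1.33 TPM in GFP-positive cells, against 6.63 ± 2.06 TPM in GFP-negative cells (n = 2 each, SD). The log2 fold change was -0.68 ± 0.48 (SE; limma adjusted p = 0.600), with a 95% interval from -1.85 to 0.49. Leaving out GFP-positive replicate 2, the library with the lowest value, gave -0.39. Leaving out GFP-negative replicate 2, the one with the highest, gave -0.40. On the same reading of a step, the longest coding transcript, of 2203 nt, would have had 16.2 and 6.42 reads in the GFP-positive libraries and 19.9 and 24.7 reads in the GFP-negative libraries. The shortest, of 713 nt, would have had 5.24 and 2.08 reads in the GFP-positive libraries and 6.44 and 8 reads in the GFP-negative libraries.

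**Figure D2:**
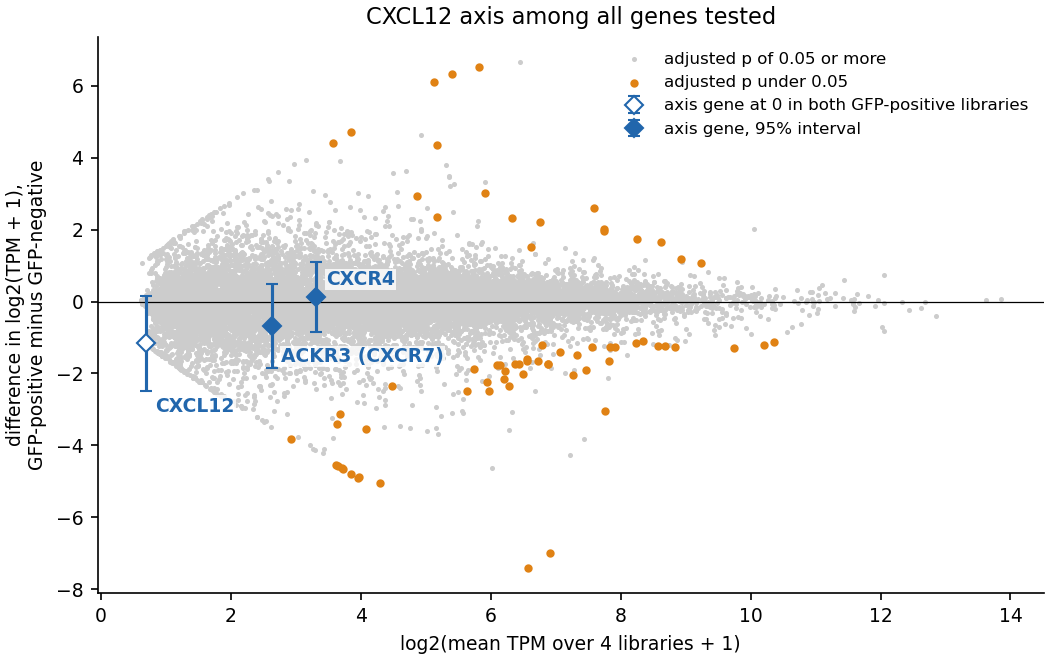
Difference in log2(TPM + 1), GFP-positive minus GFP-negative (y axis), against log2 of the mean TPM over 4 libraries + 1 (x axis), for all 15425 genes tested; blue diamonds with 95% limma intervals are the axis, open for CXCL12, which is at 0 in both GFP-positive libraries, and orange points passed an adjusted p of 0.05. The intervals of all 3 axis genes include 0, and 1 orange point lies among the genes with a mean under 10 TPM, where all 3 lie.

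Few genes of this abundance were called. Among the 5470 tested genes with a mean under 10 TPM, 1 passed (0.0183%). That gene, AL603831.1, was at 0 in the GFP-positive pair, against 11.51 and 14.95 TPM in the GFP-negative pair; it was found after the values were seen. GATA2, in which the reporter sits, shows the range of the measurement at higher levels, with 302.27 and 384.62 TPM in GFP-positive cells against 80.16 and 87.28 TPM in GFP-negative cells (limma adjusted p = 0.0316). The sort used a reporter in this very gene.

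The balance within the axis was followed by ratios inside each library. TPM ratios do not depend on library scaling, but the tests used log2(TPM + 1), where the pseudocount sets much of any ratio with CXCL12. The TPM of ACKR3 was 0.568 and 0.274 of that of CXCR4 in GFP-positive replicates 1 and 2, against 0.505 and 1.17 in GFP-negative replicates 1 and 2. CXCR4 was thus the more abundant receptor in 3 libraries, and ACKR3 in GFP-negative replicate 2. On log2(TPM + 1) the ratio differed by -0.80 between fractions (exact two-sided permutation test over 4 libraries, p = 0.667, and 0.667 adjusted over the 3 ratios), with GFP-positive replicate 1 lying above GFP-negative replicate 1. CXCL12 stood at 0 beside CXCR4 in the GFP-positive libraries and at 0.129 and 0.166 of its TPM in the GFP-negative libraries (exact permutation p = 0.333, adjusted 0.667). Relative to ACKR3, CXCL12 was at 0.255 and 0.142 in the GFP-negative libraries (exact permutation p = 0.667, adjusted 0.667). With a pseudocount of 0.1 the log2 difference of CXCL12 to CXCR4 was -3.87 in place of -1.28, and that of CXCL12 to ACKR3 -2.92 in place of -0.48. With 2 libraries against 2, the smallest p this test can give is 0.333.

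Among 23 chemokine receptor genes with a row, CXCR4 was number 2 by mean level and ACKR3 number 4. CCRL2, an atypical receptor that binds chemerin, was highest, with 11.71 and 10.91 TPM in GFP-positive cells against 16.31 and 22.97 TPM in GFP-negative cells, and exceeded CXCR4 in each of the 4 libraries. ACKR1 (DARC in the tables), the Duffy antigen of red cells and venules, lay between CXCR4 and ACKR3, with 6.92 and 7.22 TPM in GFP-positive cells against 2.14 and 6.79 TPM in GFP-negative cells. The ranges of CXCR4, ACKR1 and ACKR3 overlapped over the 4 libraries, so the order of these neighbours is not settled. CXCR4 made up 19.1% and ACKR3 11.1% of the summed mean receptor TPM. CXCR4 was number 2 in both fractions, while ACKR3 was number 4 in GFP-positive cells and number 3 in GFP-negative cells.

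**Figure D3:**
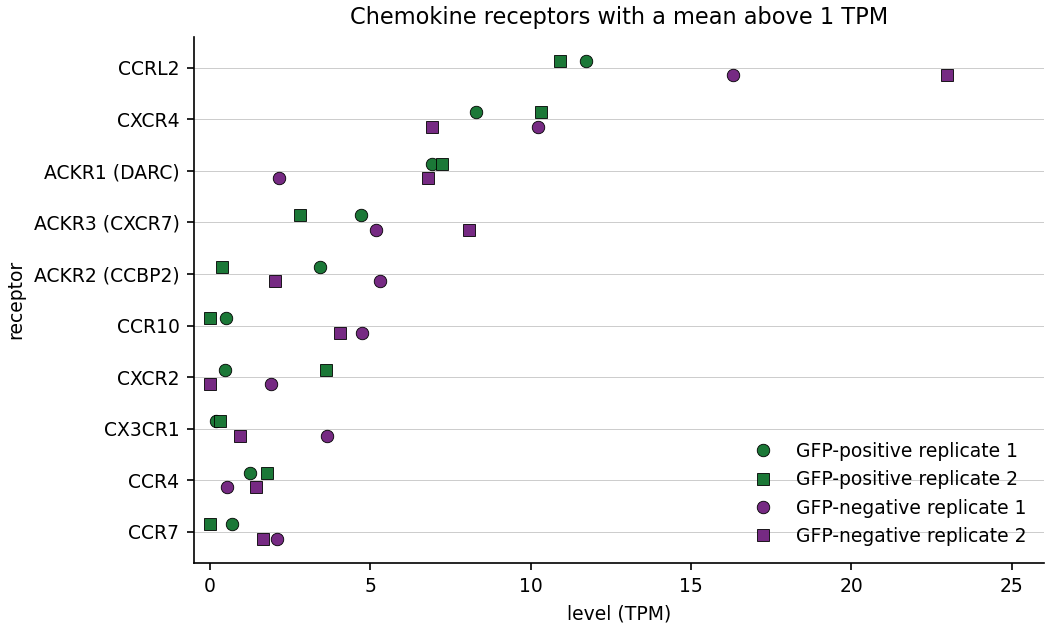
Level in TPM (x axis) of the 10 chemokine receptor genes with a mean above 1 TPM (y axis, highest at the top), in GFP-positive (green, above) and GFP-negative (purple, below) libraries; circles are replicate 1 and squares replicate 2. CCRL2 stands highest, the CXCR4 libraries of both fractions lie between 6.92 and 10.31 TPM, and those of ACKR3 between 2.82 and 8.09 TPM.

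Of the 21 receptor genes beside CXCR4 and ACKR3, 7 could be tested and none passed (1 had an unadjusted p under 0.05, near the share of 14.1% over all genes). Their median log2 fold change was -0.73, with 3 above 0 and 4 below, against 0.02 for all genes tested. The one below 0.05 was CCR10, a receptor for skin and mucosal chemokines, at 0.50 and 0 TPM in GFP-positive cells against 4.74 and 4.04 TPM in GFP-negative cells (limma adjusted p = 0.164). CCR10 entered the test only through the GFP-negative libraries, so its direction was built in. ACKR2 (CCBP2 in the tables), a scavenger of inflammatory chemokines, had 3.44 and 0.36 TPM against 5.30 and 2.03 TPM (limma adjusted p = 0.697). A further 7 receptor genes were at 0 in all 4 libraries.

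CXCL12 was 21st of 48 chemokine ligand genes by mean level. Of the other 47, 15 could be tested and none passed (3 had an unadjusted p under 0.05, against 14.1% of all genes), with a median log2 fold change of 0.02, 8 above 0 and 7 below. The most abundant was PF4, a platelet chemokine, at 31.26 and 35.38 TPM in GFP-positive cells against 26.75 and 35.60 TPM in GFP-negative cells. CXCL16, a membrane-bound ligand of CXCR6, had 20.30 and 15.79 TPM against 35.50 and 45.04 TPM (limma adjusted p = 0.163). Its libraries did not overlap, as was so in this direction for 21.5% of all genes tested. CXCL1, a neutrophil attractant, had 7.61 and 12.33 TPM against 4.78 and 6.06 TPM (limma adjusted p = 0.509). CCL3L3 had 7.52 and 8.44 TPM against 3.30 and 6.22 TPM, which is uncertain because near-identical gene copies can split its reads. The alternative ligands of the axis were CXCL11, which binds ACKR3, and CXCL14, reported to bind CXCR4. CXCL11 was listed at 0.86 and 0 TPM in GFP-positive cells against 0 in both GFP-negative libraries, and CXCL14 at 0 in both GFP-positive libraries, against 0.73 and 0.41 TPM in GFP-negative cells. A pair of further ligands, picked after their values were seen, shared the direction of CXCL12. CXCL5 had 0.25 and 0.38 TPM against 7.45 and 8.58 TPM, and CCL2 had 0 in both GFP-positive libraries against 3.22 and 2.05 TPM. Both entered the test only through the GFP-negative libraries, so their direction, too, was built in. CXCL6 and CCL3 lay the other way and fell under the filter. CXCL6 had 0.74 and 1.80 TPM and CCL3 0.85 and 2.55 TPM in GFP-positive cells, against 0 in both GFP-negative libraries.

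Proteins that bind, process or share receptors with CXCL12 were tested for 17 of 20 listed genes, and none passed (5 had an unadjusted p under 0.05, against 14.1% of all genes). Of the 17, 15 had a log2 fold change below 0, and the median was -0.49. MIF, a cytokine that also binds CXCR4, was the most abundant, at 1230 and 1230 TPM in GFP-positive cells against 1394 and 1439 TPM in GFP-negative cells (log2 fold change -0.20; limma adjusted p = 0.473). HMGB1, a nuclear protein that forms a complex with CXCL12 outside the cell, had 1099 and 1058 TPM against 1157 and 1017 TPM. Both were thus among abundant genes in fractions with little or no CXCL12 RNA. MMP14 and MMP2, matrix proteases able to cleave CXCL12, differed in pattern. MMP14 had 228 and 306 TPM against 488 and 517 TPM (limma adjusted p = 0.0971), while MMP2 had 334 and 254 TPM against 343 and 289 TPM. DPP4, the surface peptidase that trims the start of CXCL12, was picked after its values were seen and had 3.49 and 0 TPM against 1.44 and 3.03 TPM.

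All 35 listed G protein and effector genes downstream of CXCR4 could be tested. None passed (9 had an unadjusted p under 0.05, against 14.1% of all genes), and the median log2 fold change was -0.07, with 15 above 0 and 20 below. GNAI2, an inhibitory alpha subunit to which CXCR4 couples, had 509 and 572 TPM in GFP-positive cells against 877 and 833 TPM in GFP-negative cells (log2 fold change -0.66 ± 0.12, SE; limma adjusted p = 0.0983). GNAI1, of the same family and picked after its values were seen, had 163 and 164 TPM against 288 and 263 TPM (limma adjusted p = 0.0918). The beta subunit GNB1 had 527 and 562 TPM against 527 and 503 TPM. The small GTPases of cell movement lay close together in the fractions, RHOA at 835 and 763 TPM against 879 and 812 TPM, and RAC1 at 372 and 358 TPM against 433 and 358 TPM. RAC2, its relative in blood cells, was picked after its values were seen and had 132 and 118 TPM against 64.9 and 79.8 TPM (limma adjusted p = 0.151).

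Genes that switch the receptors off or route them to lysosomes were tested for 21 of 23 listed, and none passed (6 had an unadjusted p under 0.05, against 14.1% of all genes). The median log2 fold change was 0.09, with 13 above 0 and 8 below. RGS5, a regulator that shortens G protein signals, was the most abundant, at 1227 and 1160 TPM in GFP-positive cells against 1046 and 975 TPM in GFP-negative cells (limma adjusted p = 0.418). GRK2 (ADRBK1 in the tables), the kinase that phosphorylates activated receptors, had 150 and 190 TPM against 265 and 198 TPM. The sorting genes HGS and VPS4A, which act on the endosomal path, had 187 and 196 TPM against 181 and 202 TPM, and 117 and 119 TPM against 139 and 132 TPM. STAM and RGS3 were picked after their values were seen, and their libraries did not overlap between fractions. That was so for 44.3% of all genes tested, and in this list for 9 genes higher and 5 lower in GFP-positive cells. STAM, an adaptor in receptor sorting, had 57.58 and 58.02 TPM against 26 and 23.27 TPM (limma adjusted p = 0.0878), and RGS3 had 67.7 and 48.6 TPM against 137 and 147 TPM (limma adjusted p = 0.0732). The arrestin genes ARRB1 and ARRB2, also picked afterwards, had log2 fold changes of -0.17 and 0.07.

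Of 19 factors and sensors known to act on CXCL12 or CXCR4 or to govern endothelial and blood fate, 1 rose, GATA2. The other 18 did not pass, and over all genes 0.123% rose. GATA2 holds the reporter used for the sort, so its rise is not independent of the sort. With GATA2 counted, 7 of the 19 had an unadjusted p under 0.05, against 14.1% of all genes. The median was -0.10, with 5 above 0 and 14 below. HIF1A, the hypoxia factor that induces both CXCL12 and CXCR4, had 164 and 211 TPM in GFP-positive cells against 222 and 221 TPM in GFP-negative cells (limma adjusted p = 0.580). EPAS1, its endothelial relative, had 13.62 and 12.70 TPM against 24.46 and 29.01 TPM (limma adjusted p = 0.222). SOX17, an arterial factor, had 3.51 and 2.45 TPM against 36.2 and 20.0 TPM (limma adjusted p = 0.0666). RUNX1 and ETV2, of the same list, went the other way. RUNX1 had 198 and 328 TPM against 96.5 and 134 TPM (limma adjusted p = 0.159). ETV2 had 23.4 and 30.7 TPM against 11.3 and 19.7 TPM (limma adjusted p = 0.396). HIF1A, EPAS1, SOX17, RUNX1 and ETV2 were picked after their values were seen.

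CXCR4 was set beside arterial genes because it serves as an arterial marker. Of 16 arterial genes tested, none passed (12 had an unadjusted p under 0.05, against 14.1% of all genes). Of these, 15 had a log2 fold change below 0, against 7442 of 15425 genes, and the median was -0.79, against 0.02. The most abundant were ACVRL1, NRP1, NOTCH1 and JAG2, with log2 fold changes of -0.76, -0.58, -0.72 and -0.91. CXCR4, at 0.12, lay above 15 of them, the exception being GJA5, a gap junction gene named for this, at 0.97. DLL4, a Notch ligand of arteries picked after its values were seen, had 15.8 and 10.8 TPM in GFP-positive cells against 41.3 and 30.0 TPM in GFP-negative cells (limma adjusted p = 0.154). NT5E, the gene of CD73 and likewise picked afterwards, had 3.86 and 10.26 TPM against 77.07 and 56.12 TPM (limma adjusted p = 0.058). That the difference of CXCR4 departs from that of arterial genes was not tested.

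**Figure D4:**
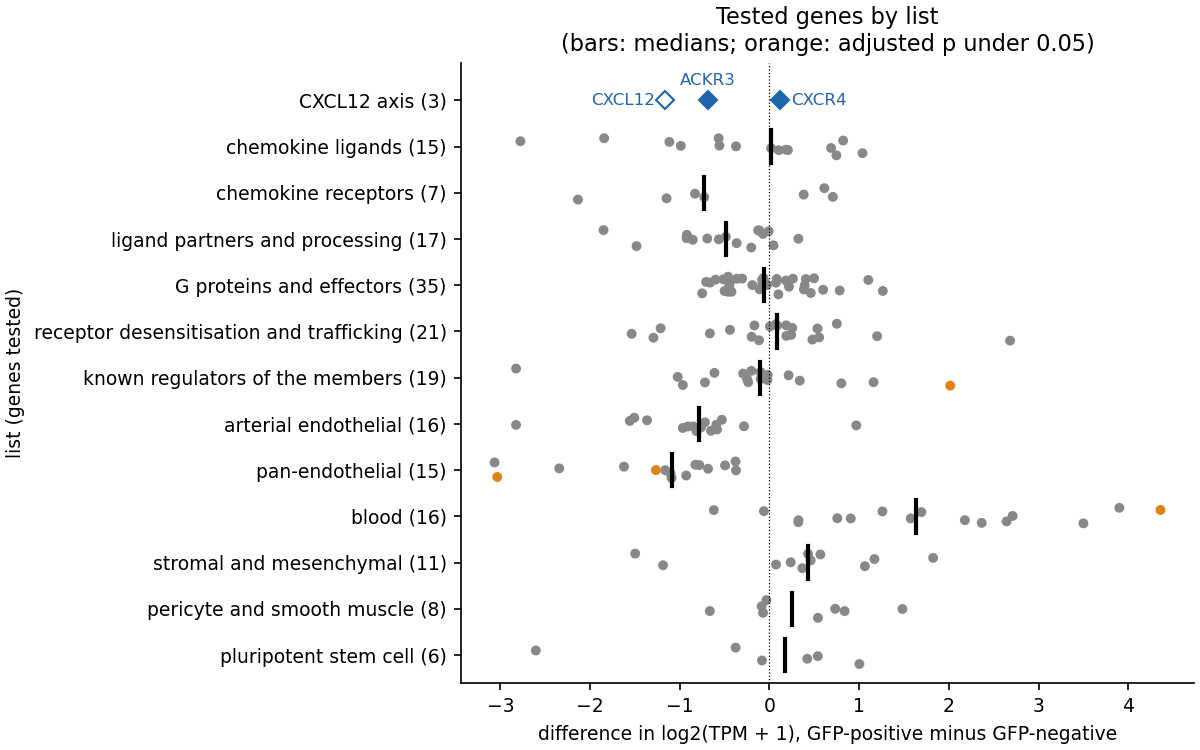
Difference in log2(TPM + 1), GFP-positive minus GFP-negative (x axis), of each tested gene by list (y axis, number tested in parentheses); points are genes, vertical bars list medians, orange points genes past an adjusted p of 0.05, and diamonds the axis, open for CXCL12. Medians run from -1.09 for pan-endothelial to 1.63 for blood genes, and CXCR4 lies near 0.

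Summed levels of markers of the cell types that the sort could hold differed between the fractions. A sum can be carried by 1 abundant gene, so it need not hold for its whole list. The 15 pan-endothelial genes had summed levels of 4636 and 4851 TPM in GFP-positive cells against 8414 and 7411 TPM in GFP-negative cells. All 15 had a TPM above 0 in every library except CLDN5, a tight junction gene, which had 1.09 and 0 TPM in GFP-positive cells against 7.46 and 5.36 TPM in GFP-negative cells. All 15 lay lower in GFP-positive cells without overlap, each with an unadjusted p under 0.05 and with a median log2 fold change of -1.09. RAMP2 and MMRN2 fell and 13 did not pass. Over all genes tested, 21.5% lay lower without overlap, 14.1% had an unadjusted p under 0.05 in either direction, and 0.324% fell. The 17 blood genes summed to 463 and 353 TPM against 93.3 and 93.9 TPM. Of 16 tested, HBG2 rose and 15 did not pass, where 0.123% of all genes rose, and 10 had an unadjusted p under 0.05. Of the 16, 14 lay above 0 and 2 below. Those below were PTPRC, at 0.54 and 1.84 TPM against 2.64 and 0.31 TPM, and LCP1, at 2.82 and 3.88 TPM against 5.68 and 5.60 TPM. Globins held much of the sums, with HBE1 at 113 and 36.1 TPM against 7.87 and 2.72 TPM. HBG2 had 90.6 and 45.7 TPM against 2.27 and 2.11 TPM. HBG2 has a near-identical copy, HBG1, that can share its reads. The 14 stromal and mesenchymal genes, of a kind of cell that makes CXCL12, summed to 1362 and 1140 TPM against 1107 and 1077 TPM. Of 11 tested none passed and 4 had an unadjusted p under 0.05. Of the 11, 9 lay above 0 and 2 below, with a median log2 fold change of 0.43. The most abundant of them were COL1A1, at 385 and 528 TPM in GFP-positive cells against 149 and 268 TPM in GFP-negative cells, COL1A2, at 402 and 273 TPM against 284 and 278 TPM, THY1, at 284 and 162 TPM against 571 and 419 TPM, and COL3A1, at 196 and 115 TPM against 69.9 and 72.8 TPM. TWIST2 and FAP, the 2 stromal genes listed at 0 in all 4 libraries, were picked out after the values were seen. The 8 pericyte and smooth muscle genes summed to 1286 and 1483 TPM against 832 and 1083 TPM. None of these 8 passed, 4 lay above 0 and 4 below, and 3 had an unadjusted p under 0.05. The most abundant of the 8 was TAGLN, at 802 and 865 TPM in GFP-positive cells against 396 and 547 TPM in GFP-negative cells. The 8 pluripotency genes summed to 710 and 582 TPM against 502 and 474 TPM. Of 6 tested none passed, 3 lay above 0 and 3 below, and 2 had such a p. LIN28A and POU5F1, picked after their values were seen, went opposite ways. LIN28A had 477 and 386 TPM against 304 and 287 TPM, and POU5F1 0.93 and 0.03 TPM against 9.68 and 5.88 TPM. In bulk samples, fewer cells of a type and less RNA per cell cannot be told apart, and the part of these cell types in the levels of CXCL12, CXCR4 and ACKR3 was not tested.

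The genes closest in pattern to each member were found by Euclidean distance over the 4 libraries in log2(TPM + 1), centred on each gene's mean. For CXCR4 they were DCAF11 (0.0192), TMSB15B (0.0291) and SAP30L (0.0412). For ACKR3 they were ZNF253 (0.0384), GPC3 (0.102) and NBPF9 (0.108). For CXCL12 they were CNTNAP2 (0.0409), AC012457.2 (0.0663) and KIAA1244 (0.0715), of which the first 2 were also listed at 0 in both GFP-positive libraries. None of these genes passed the test, and the likeness describes 4 libraries only.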

How the data were processed

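Per the labels' protocols, RNA was extracted with Trizol, and libraries were built with Illumina's TruSeq kit for RNA. The authors deposited 1 table of TPM per library. The submitters' processing notes name Bowtie, RSEM and the builds hg19 and mm10 without roles; which annotation was used is not given in the sources read. TPM keeps no read totals, so the counting error of low values cannot be read from the tables.

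The 4 tables hold the same 28285 rows. Of the identifiers, 89.7% matched GENCODE v29. Groups and replicate numbers came from the titles; no label calls the replicates separate cultures, and the p-values then reflect only how far these samples spread, which may be technical. Limma 3.58.1 in R 4.3.3, with a variance trend, was fitted on log2(TPM + 1) to genes reaching 1 TPM in 2 or more libraries; fold changes on this scale understate those of low genes. It was tested on simulated data, with changes placed only in genes more abundant than any of the 3 members. How well the fit finds changes at the level of the members was therefore not tested. Ratios and permutation tests used Python 3.11.15 with NumPy 2.4.6. For the depth steps, genes with 1 transcript over 1500 nt were used, with full annotated lengths. The step was chosen as the one at which the low values clustered most. Of these values 66.9% to 70.2% were at most 0.15 from a whole step. Evenly spread values would give 30.0% at a fixed step. The choice of step raises the share found, by an amount that was not tested, so the 2 are not a like comparison. Where a symbol had several rows, the one paired with it in a table of gene names was taken.

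The members, gene lists and tests were chosen with earlier results of these data known. Genes named by rule were the 3 members, in each pathway list those past the threshold or otherwise the 4 most abundant, and the 3 closest to each member. Genes outside this rule, among them those of the marker lists, were chosen after their values were seen. Alternatives were another pseudocount, other filters, upper quartile scaling, no trend, a replicate block and each library left out.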

Additional observations from a re-analysis of the deposited data

How the results depend on the processing

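None of CXCL12, CXCR4 and ACKR3 passed under any alternative run, with limma adjusted p-values of 0.183 to 0.588 for CXCL12, 0.852 to 0.992 for CXCR4 and 0.483 to 0.942 for ACKR3. CXCL12 could not be fitted with a mean above 5 TPM or without either GFP-negative library, where it fell under the filter. Log2 fold changes with each library left out ran from -0.13 to 0.37 for CXCR4, which turned below 0 without replicate 2 of either fraction (-0.02 for GFP-positive, -0.13 for GFP-negative), and from -0.97 to -0.39 for ACKR3. The log ratio of ACKR3 to CXCR4 stayed below 0 in the 5 alternatives run, from -1.33 to -0.27. With no filter and with no variance trend CXCL12 had unadjusted limma p-values of 0.0224 and 0.00509. Its GFP-positive values, both 0, had no spread. The standard error was 0.37 and 0.21 in these fits, against 0.54 in the main fit. With no variance trend the gene still entered only through the GFP-negative libraries, so these p-values are not evidence of a difference. The count of genes passing over all genes was unsteady. By limma it was 0 at pseudocount 0.1, 0 with no filter and 0 with no variance trend, where 2101, 2230 and 2072 genes had unadjusted p-values under 0.05. It was 164 with a mean above 5 TPM and 596 with the replicate block, and 18 to 65 with a library left out, the lowest without GFP-negative replicate 1. The replicate numbers were not taken as pairs. Same-numbered libraries deviated together with a correlation of 0.0719. With 2 libraries per fraction this is a single value that cannot settle whether the libraries are paired. The block changed no call of the 3 genes but raised the count passing over all genes from 69 to 596.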
